A study of Mus musculus with 18 samples.

Results

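The genes Gata2, Gata3, Gata4, Gata5, Gata6, Hand1, Hand2 and Mef2c were taken by name, 8 of the 21883 protein-coding genes of the annotation, and followed through peak lists of the histone mark H3K27me3. For each list, peaks were counted that overlapped the gene span extended by 1 kb at each end. The lists came from CUT&Tag, in which a transposase tethered to an antibody cuts the DNA around the mark, on mouse headfolds at embryonic day 8.5, with 1 headfold per reaction. Headfold cells had been frozen and thawed before the reaction, and they include the tissue that builds the brain. Every embryo was Gulo-/-, a loss of the last enzyme of vitamin C synthesis. The 4 groups were B6 without vitamin C, B6 with vitamin C, 129 without vitamin C and 129 with vitamin C, where supplemented dams drank water with 3.3 g/l vitamin C and the others received none. Each group had 3 libraries with a peak list, from 2 female embryos and 1 male embryo. In B6 with vitamin C the 3 embryos carry 1 pregnancy code, so a difference that involves this group cannot be told apart from that pregnancy. The p-values below treat all embryos as independent, and in this group they cover only the spread within 1 pregnancy code. The B6 libraries keep the replicate numbers 1, 2 and 4.

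H3K27me3 is laid down by Polycomb repressive complex 2 and in embryos covers regulators of cell fates that a tissue does not adopt. Gata factors are zinc finger proteins that bind GATA sites: Gata2 and Gata3 act in blood, trophoblast and certain neurons, and Gata4, Gata5 and Gata6 in heart and endoderm. Hand1 and Hand2 are basic helix-loop-helix proteins of the heart, the branchial arches and extraembryonic or sympathetic lineages. Mef2c is a MADS-box factor of heart, muscle, neural crest and neurons. A peak reports the mark and not transcription, and a headfold holds several cell types, so that the share of cells with the mark and the density of the mark per cell cannot be told apart.

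Each library contributed 748 to 4726 peaks, over 3.58 to 31.7 Mb of mm10. Sequencing depth is unknown, because the lists give no read totals, and peak signal was therefore only ranked within a list. Lists of B6 covered 3.58 to 27 Mb and those of 129 covered 6.97 to 31.7 Mb. Lists without vitamin C covered 3.58 to 26.2 Mb and those with it 8.69 to 31.7 Mb. In B6 without vitamin C replicate 1 and B6 with vitamin C replicate 2 the peaks were short, with a median width of 1.32 and 1.41 kb against 3.93 to 8.45 kb in the other lists. Of markers of the anterior neural plate, 6 of 12 genes had a peak in at least 10 lists and 1 in none. Of 20 housekeeping genes, 19 had no peak in any list and Actb had a peak in 1. Of all protein-coding genes, 5.93% had a peak in at least 10 lists and only 20.2% in at least 1, so most genes had none.

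The starts of 5 of the 8 genes are shown here because whether a peak lies on a listed start separates Gata2 and Gata5 from Gata3 and Mef2c. At Gata3 this holds only for the start listed, which lies inside the gene span and not at its 5′ end. The 250 bases upstream of each start, from RefSeq on GRCm38.p6 (the assembly named mm10), are printed 5′ to 3′ with CG dinucleotides in capitals.
Gata2, first start, plus strand, chr6:88193641-88193890: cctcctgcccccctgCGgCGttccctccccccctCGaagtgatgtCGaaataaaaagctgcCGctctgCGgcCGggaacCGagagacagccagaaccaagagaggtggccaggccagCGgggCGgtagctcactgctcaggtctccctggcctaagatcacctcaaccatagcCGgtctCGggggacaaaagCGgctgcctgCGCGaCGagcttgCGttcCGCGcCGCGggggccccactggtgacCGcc
Gata5, minus strand, chr2:180334680-180334929: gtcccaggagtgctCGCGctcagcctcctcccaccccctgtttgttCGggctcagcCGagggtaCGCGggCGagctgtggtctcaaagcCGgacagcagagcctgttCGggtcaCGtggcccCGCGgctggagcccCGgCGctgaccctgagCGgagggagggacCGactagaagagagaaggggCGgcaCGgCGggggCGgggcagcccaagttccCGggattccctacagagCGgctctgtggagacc
Hand2, plus strand, chr8:57320733-57320982: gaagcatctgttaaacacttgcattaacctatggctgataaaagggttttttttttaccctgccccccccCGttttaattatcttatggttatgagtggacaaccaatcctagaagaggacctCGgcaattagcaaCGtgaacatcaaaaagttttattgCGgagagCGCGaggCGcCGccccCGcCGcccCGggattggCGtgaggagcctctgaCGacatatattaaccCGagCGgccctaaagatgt
Gata3, minus strand, chr2:9878601-9878850: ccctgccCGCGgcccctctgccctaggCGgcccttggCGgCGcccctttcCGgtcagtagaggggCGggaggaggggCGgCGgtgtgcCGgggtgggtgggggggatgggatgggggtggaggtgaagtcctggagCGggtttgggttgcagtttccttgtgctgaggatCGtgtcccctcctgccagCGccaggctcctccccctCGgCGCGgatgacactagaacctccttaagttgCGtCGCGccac
Mef2c, second start, plus strand, chr13:83523406-83523655: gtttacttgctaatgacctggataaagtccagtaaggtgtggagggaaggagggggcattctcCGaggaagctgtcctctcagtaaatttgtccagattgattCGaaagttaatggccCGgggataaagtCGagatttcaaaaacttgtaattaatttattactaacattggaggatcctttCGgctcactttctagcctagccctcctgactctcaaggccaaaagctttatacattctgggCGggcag
These stretches held 22 CG dinucleotides at Gata2, 22 at Gata5, 15 at Hand2, 19 at Gata3 and 6 at Mef2c.

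The RefSeq promoter table held 8 windows of 300 bases for these 5 genes. The first Gata2 window, with 32 CG dinucleotides, and the Gata5 window, with 26, lay wholly inside a peak in all 12 lists. The second Gata2 window, with 29, lay inside a peak in 11. The Hand2 window, with 17, lay wholly inside a peak in 10 lists and partly in 1 more. The Gata3 window, with 22, was inside a peak in 6 lists only. The 3 Mef2c windows held 1, 10 and 4 CG dinucleotides, and only the second was inside a peak, in 1 list. Over all 32851 windows of the table the median was 7, and 9.52% of them held as many as the first Gata2 window. The hexamer AGATAA and its variants (TGATAA with another first base, AGATAG with another last base, and with both of these TGATAG), sought on both strands, occurred 2 times in the Hand2 window and 1 time in that of Gata3. They did not occur in the other 6 windows, and 29.8% of all windows held at least 1 of them. A match of letters is a description and shows no binding.

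A peak was present in all 12 lists at 6 of the 8 genes (Gata2, Gata3, Gata4, Gata5, Hand1 and Hand2), in 11 lists at Gata6 and in 1 list at Mef2c. Of all protein-coding genes, 2.18% had a peak in all 12 lists 20.2% in at least 1, and 15.8% in at least 2. At 7 of the 8 genes a peak was present in at least 10 lists, as at 5.93% of all genes. The mean percent of the extended span covered over the 12 lists was highest at Hand1 (96.7 ± 8.89%, SD, n = 12), followed by Hand2 (86.5 ± 29.1%) and Gata2 (84.9 ± 18.5%). Gata5 (46.7 ± 15.7%), Gata3 (39.0 ± 19.4%) and Gata4 (38.6 ± 13.7%) formed a middle range, and Gata6 (20.2 ± 10.5%) and Mef2c (0.22 ± 0.77%) were lowest. Between Hand2 and Gata2 the difference within lists was 1.60 ± 23.7 points, and between Gata3 and Gata4 it was 0.33 ± 9.76 points, so these neighbours did not differ beyond their spread. Gata5 and Gata3 (7.70 ± 9.81 points) and Hand1 and Hand2 (10.2 ± 20.6 points) were likewise within theirs. Gata2 was above Gata5 in 12 of 12 lists, Gata4 above Gata6 in 12 of 12, and Gata6 above Mef2c in 11 with the other list at 0 for both. The percent depends on the length of the span, which with its 1 kb ends was 5.44 kb at Hand1 and 165.1 kb at Mef2c. In covered length Gata4 came first, with 28.9 ± 10.2 kb of its 74.8 kb.

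**Figure D1:**
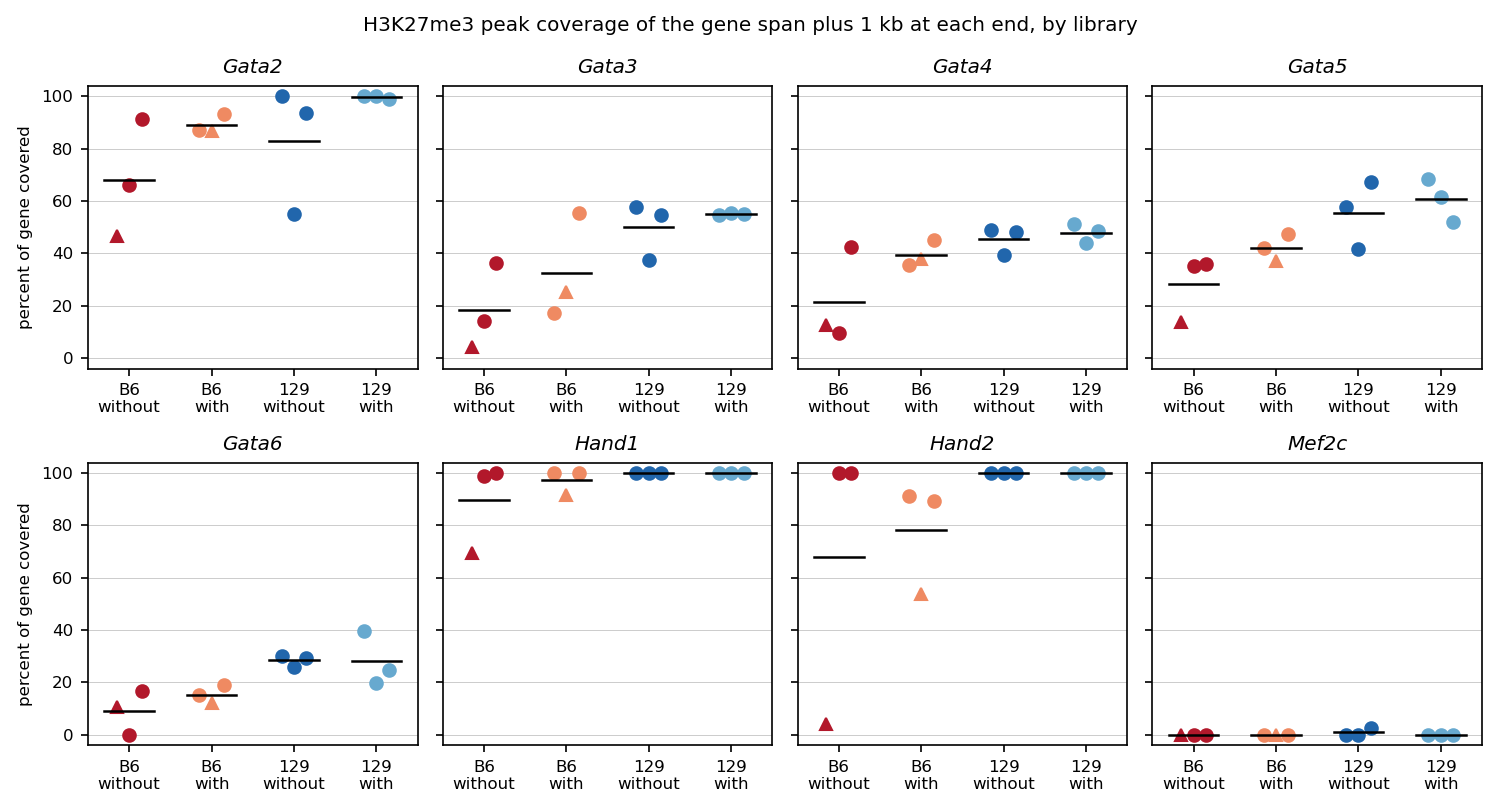
Percent of each gene span, extended by 1 kb at each end, that H3K27me3 peaks covered. The x axis gives background and vitamin C, each point is 1 library, triangles are the 2 libraries with short peaks and bars are group means (n = 3). Hand1 was at 100% in all 6 libraries of 129, and Mef2c was at 0 in 11 of 12 libraries.

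Gata2, a regulator of blood stem cells and of some hindbrain and spinal neurons (chromosome 6, 88193891 to 88207032), was covered nearly from end to end in most embryos. In B6 the percent covered was 46.8, 66.1 and 91.5 without vitamin C, and 87.0, 86.7 and 93.2 with it. In 129 it was 100, 55.0 and 93.6 without vitamin C, and 100, 100 and 99.1 with it. The low values were thus 2 B6 libraries and 1 library of 129, all without vitamin C, and the groups overlapped in 129 and in B6. The lists of these libraries covered 3.58, 4.15 and 6.97 Mb, the least of all 12. The part of list breadth in the low values was not tested. Where 129 without vitamin C replicate 2 was low, its peaks left out the second start, with the nearest ends 1.16 and 4.17 kb away. The merged region over all lists was 24.1 kb long and also reached the noncoding gene Gm38708. The highest point of the strongest peak lay within 1 kb of a start in 7 of 12 lists.

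Gata3 is a factor of T cells, trophoblast and sympathetic neurons (chromosome 2, 9857078 to 9887953). It was marked toward the end of its span at the higher coordinates and beyond that end. On the minus strand this is the 5′ end of the gene. A stretch over it (chromosome 2, 9886488 to 9892311) was covered in at least 10 lists. In most lists peaks lay on both sides of the listed start of Gata3, which lies inside the span. The percent covered in B6 was 4.39, 14.1 and 36.3 without vitamin C, and 17.0, 25.4 and 55.4 with it. In 129 it was 57.9, 37.4 and 54.7 without vitamin C, and 54.6, 55.5 and 55.0 with it. Only B6 with vitamin C replicate 4 reached the level of 129, where 5 of 6 libraries lay between 54.6 and 57.9%. The window at the start was inside a peak in 0 of 3 B6 libraries without vitamin C and 1 of 3 with it, and in 2 of 3 libraries of 129 without vitamin C and 3 of 3 with it. In B6 without vitamin C replicate 4, B6 with vitamin C replicate 2 and 129 without vitamin C replicate 2, separate peaks ended 1.85 to 2.74 kb to one side of the start and began 2.08 to 3.16 kb to the other side. The highest point of the strongest peak lay a median of 10.97 kb upstream of the start, which is beyond the end of the span. The stretch covered in all 12 lists was 966 bp (chromosome 2, 9888948 to 9889913). It lay outside the Gata3 span, almost wholly beyond the 1 kb extension, and overlapped the end of the noncoding gene 9230102O04Rik. That gene was covered to 84.2% on average and had a peak in 12 lists.

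Gata4, which drives heart and endoderm development (chromosome 14, 63198914 to 63271712), had the most fragmented pattern. In B6 the percent covered was 12.8, 9.52 and 42.4 without vitamin C, and 35.5, 38.0 and 45.0 with it. In 129 it was 49.1, 39.6 and 48.3 without vitamin C, and 51.1, 44.0 and 48.4 with it. The 2 lowest libraries were both B6 without vitamin C, and the third library of that group stood with the others. The gene was covered by 1 to 8 separate peaks, with 7 and 8 in the 2 libraries of short peaks. All but 1 small peak lay toward the higher coordinates, where the merged region spanned 41.4 kb (chromosome 14, 63234487 to 63275882).

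Gata5, a heart and gut endoderm factor (chromosome 2, 180325088 to 180335503), had a single compact peak in every list. The percent covered in B6 was 13.9, 35.2 and 36.0 without vitamin C, and 42.0, 36.9 and 47.3 with it. In 129 it was 57.8, 41.7 and 67.1 without vitamin C, and 68.4, 61.5 and 52.0 with it. In B6 the diets did not overlap, although the nearest libraries were at 36.0% without and 36.9% with vitamin C. In 129 they overlapped. The highest point lay within 1 kb of the start in 11 of 12 lists. The merged region of 12.4 kb also held part of the noncoding genes Gata5os and Gm52543.

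Gata6, needed for extraembryonic endoderm and heart (chromosome 18, 11052510 to 11085636), was marked over the end of the gene at the lower coordinates and over the noncoding gene Gata6os beside it. The percent covered in B6 was 10.7, 0 and 16.6 without vitamin C, and 15.1, 11.9 and 18.9 with it. In 129 it was 29.9, 26.0 and 29.1 without vitamin C, and 39.7, 19.8 and 24.8 with it. Every library of B6 was below every library of 129. The value of 0, in B6 without vitamin C replicate 2, came from a peak of 5.09 kb that ended 1.60 kb before the gene and thus outside the 1 kb extension. Gata6os had a peak in 12 of 12 lists and was covered to 54.7% on average.

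Hand1, a factor of the left ventricle and of trophoblast giant cells (chromosome 11, 57828713 to 57832147), was the most evenly covered of the 8. It was covered to 100% in 9 lists, and the other 3 were B6 libraries: 69.5 and 99.0% in replicates 1 and 2 without vitamin C and 91.6% in replicate 2 with it. The widest peak at Hand1 measured 1.98 to 15.9 kb in B6 and 16.1 to 21.5 kb in 129. The merged region of 21.5 kb held the whole of the noncoding gene Gm32915.

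Hand2, which acts in the right ventricle, the branchial arches and sympathetic neurons (chromosome 8, 57320983 to 57324517), lay in the longest of these domains. The widest peak was 3.08, 11.5 and 37.7 kb in B6 without vitamin C and 10.1, 1.86 and 29.4 kb in B6 with it. It was 44.7, 10.5 and 44.1 kb in 129 without vitamin C and 50.2, 38.0 and 46.0 kb in 129 with it. In 5 of 6 libraries of 129 the peak thus exceeded the longest one of B6. Summed over its peaks, B6 with vitamin C replicate 4 reached 42.2 kb, above 129 with vitamin C replicate 2. Peaks were wider in 129 in general, with a middle value of 6.46 kb against 4.22 kb in B6. The share of all genes with this pattern was not computed. The gene itself was covered to 100% in 8 lists. It was covered to 91.1, 53.9 and 89.1% in the 3 B6 libraries with vitamin C and to 4.12% in B6 without vitamin C replicate 1, whose only peak began 4.31 kb beyond the start. The merged region of 50.2 kb also held the noncoding genes Gm34030 and Hdnr and part of Hand2os1. The highest point of the strongest peak lay within 1 kb of the Hand2 start in 0 of 12 lists, at a median of 9.20 kb downstream of it.

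Mef2c (chromosome 13, 83504017 to 83667079) was the exception, with a peak in 1 list only. In 129 without vitamin C replicate 3 a peak of 4.38 kb (chromosome 13, 83522309 to 83526687) covered 2.65% of the extended span and included the second start. By total signal it stood at the 0.095 percentile of its list, among the weakest peaks there. Beyond the higher end of the gene the nearest peak lay 42.7 to 53.7 kb away in 10 of the 11 lists with no peak at Mef2c. This neighbouring domain held the noncoding genes Gm52046, with a peak in 11 lists and 70.8 ± 40.2% of it covered on average (SD, n = 12), and C130071C03Rik, with a peak in 10 lists, and the microRNA gene Mir9-2, with a peak in 8.

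**Figure D2:**
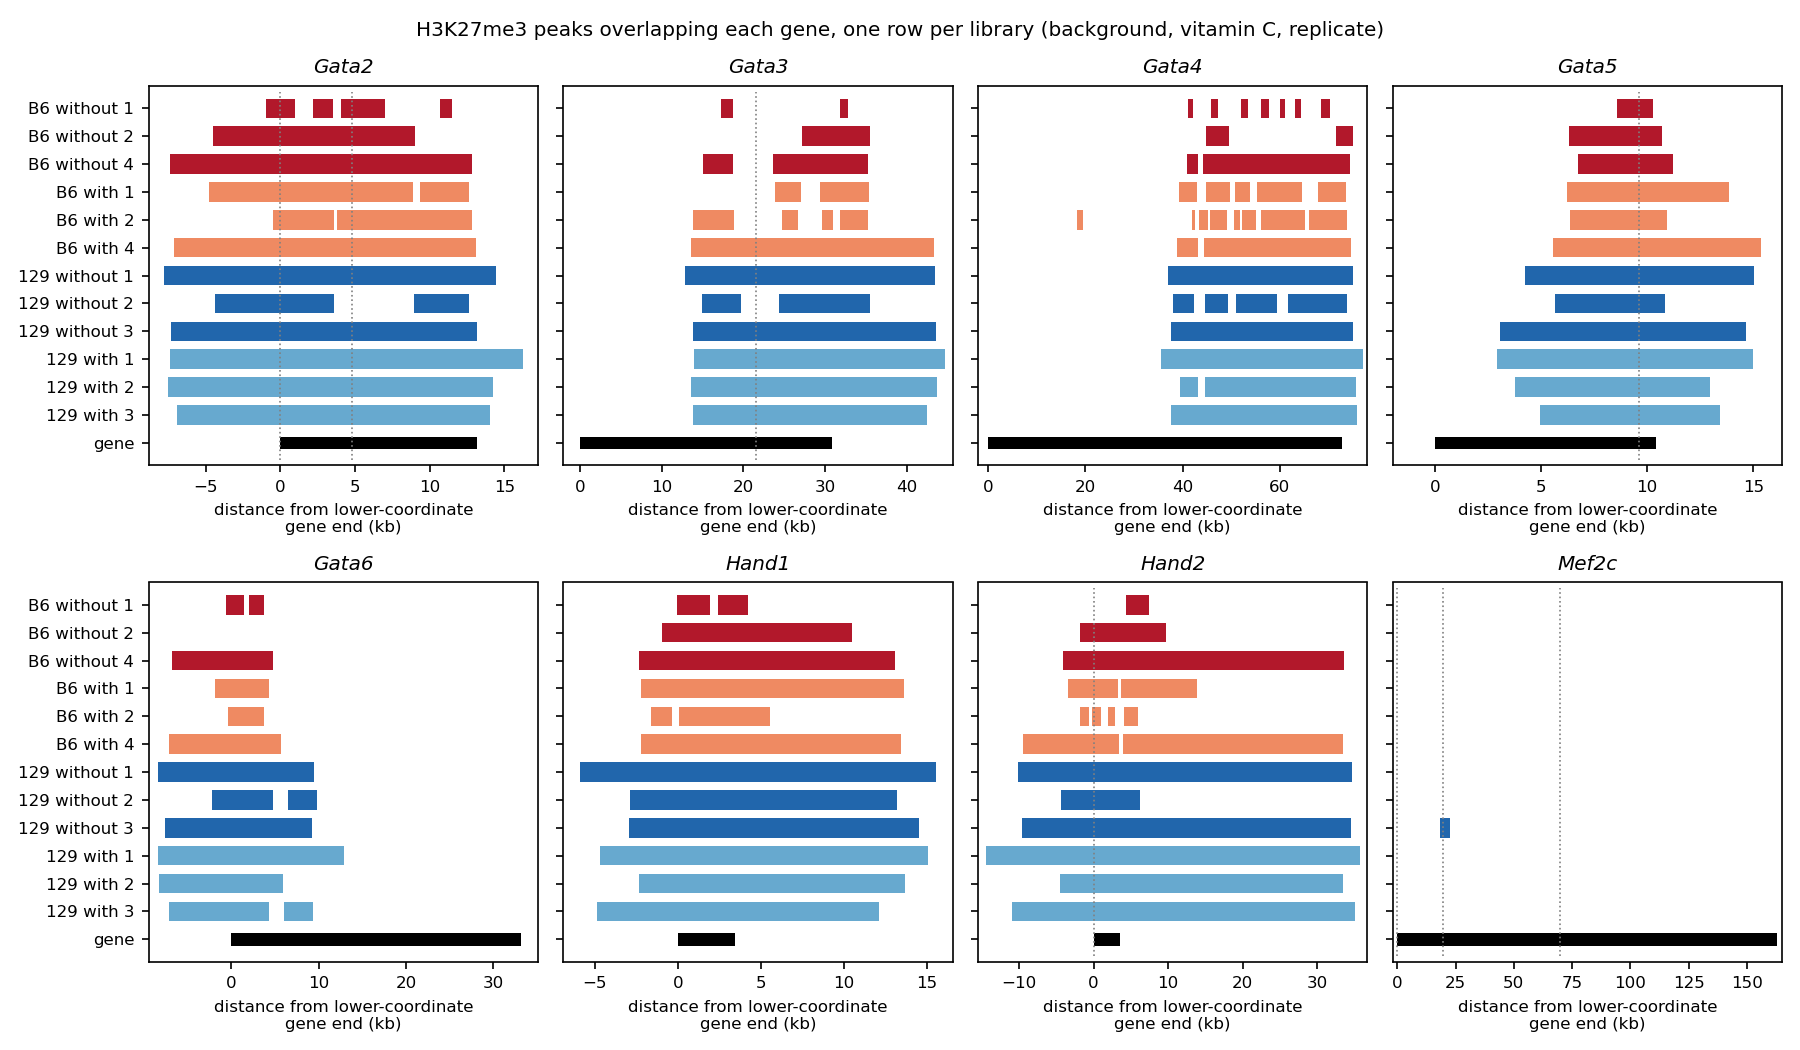
Peaks overlapping each gene, 1 row per library, as distance in kb from the end of the gene at the lower coordinates. The black bar is the gene span and dotted lines are the RefSeq starts where the promoter table gave them. In the 2 libraries of short peaks (B6 without 1, B6 with 2) Gata4 holds 7 and 8 separate peaks, against 1 to 5 in the other libraries.

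By total signal the strongest peak at most of these genes ranked high within its list. The median percentile over the lists that had a peak was 99.1 at Gata4, 98.9 at Hand2, 97.2 at Gata2, 96.3 at Hand1, 95.7 at Gata3 and 90.7 at Gata6. Gata5 was lower at 77.9, with a range of 39.6 to 90.6. Total signal grows with peak width, and by maximum signal the medians were lower at each of these 7 genes, from 71.1 at Gata5 to 93.7 at Gata4. The lowest ranks of Gata3 (65.6), Gata4 (59.9), Gata5 (39.6), Gata6 (73.3) and Hand1 (83.9) were in B6 libraries without vitamin C. That of Gata2 (90.9) was in 129 without vitamin C replicate 2, and that of Hand2 (76.3) was in B6 with vitamin C replicate 2. The ranks come from lists of different length and were not tested.

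**Figure D3:**
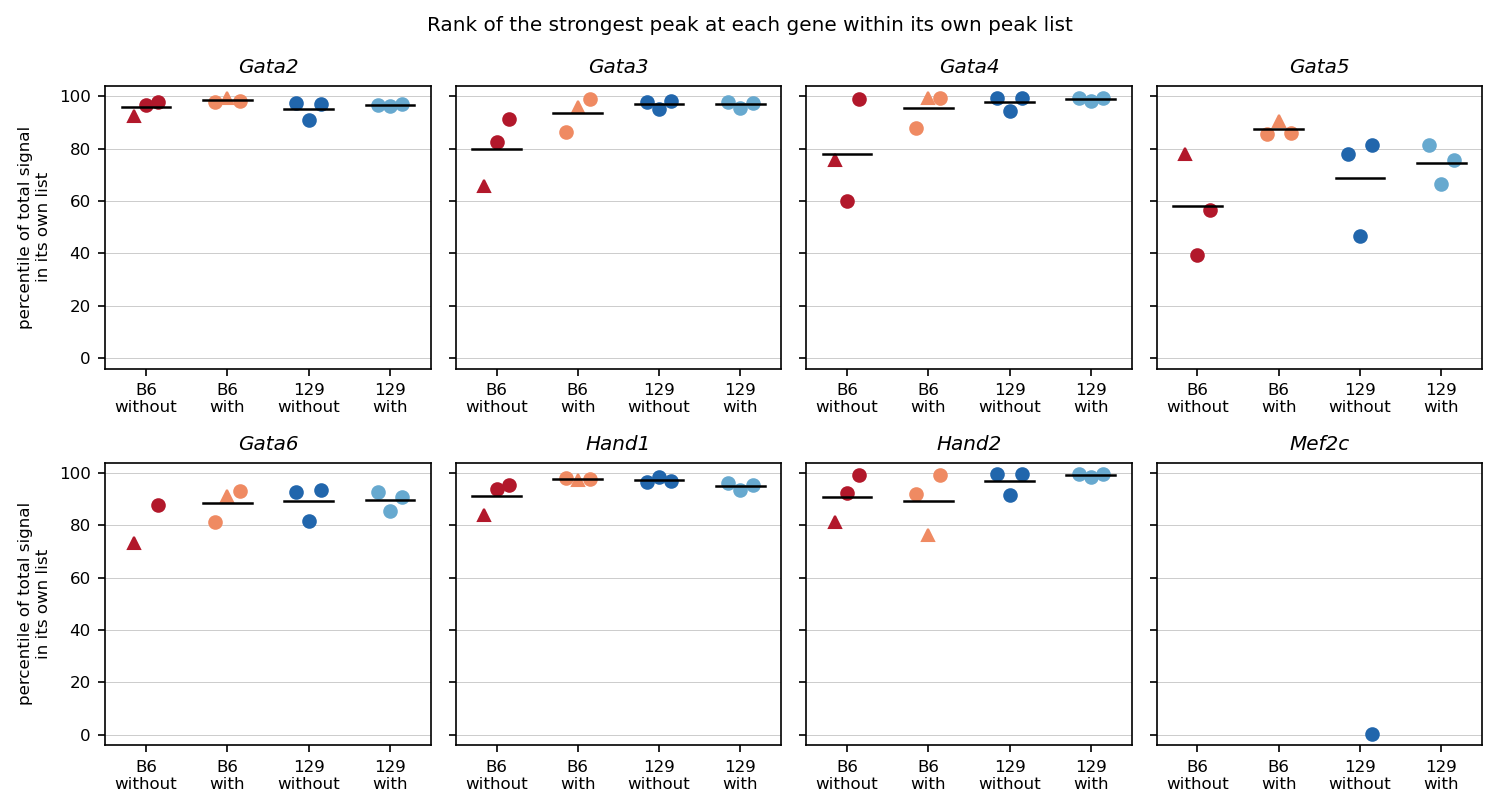
Percentile of the total signal of the strongest peak at each gene within its own peak list, by background and vitamin C. Each point is 1 library, triangles are the 2 libraries of short peaks and bars are means of groups with 3 values. Gata2 stayed between 90.9 and 99.2 in all 12 lists, whereas Gata5 ranged from 39.6 to 90.6.

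Whether the diet moves the mark is the question the design poses, and none of these genes passed the adjusted test for a difference without against with vitamin C. Of the 8 genes, 7 passed the filter of a peak in at least 2 lists, and Mef2c did not. Their mean coverage was lower without vitamin C at 7 of these 7 over both backgrounds, which is read against a share of 85% among all 3460 genes tested. Gata2 had the largest difference, with 75.5 ± 22.4% without and 94.3 ± 6.33% with vitamin C (SD, n = 6 each), or -18.8 points (exact permutation within background, two-sided, p = 0.06, adjusted p = 0.80). Gata4 was at 33.6 ± 17.8% without and 43.7 ± 5.97% with vitamin C, or -10.0 points (exact permutation p = 0.18). Gata3 (-9.70 points), Gata5 (-9.41), Hand2 (-4.99), Hand1 (-3.86) and Gata6 (-2.99) differed by less, with exact permutation p of 0.13 to 1 and adjusted p of 0.80 to 1. The median over the 7 genes was -9.41 points, beside -2.76 over all genes tested. Coverage itself had a median of 8.68% over all genes tested, well under that of most of these genes. Of the 3460 genes 0 (0%) passed a threshold of 0.05 after Benjamini-Hochberg adjustment of the exact permutation p, limma called 0, and 71 (2.05%) had an unadjusted p below 0.05, none of them among the 7. The covered length of the lists had overlapping ranges in the 2 diets, as given above. Its median was 4.15 Mb without and 11.4 Mb with vitamin C in B6. In 129 the order was the other way, with 25.9 Mb without and 20.5 Mb with it. The part of covered length in these differences was not tested.

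Within B6 the coverage was lower without vitamin C at 7 of the 7 genes, beside 90.7% of all genes tested. The median difference of the 7 was -13.7 points, beside -3.82 over all genes. It was -20.8 points at Gata2, -17.9 at Gata4, -14.4 at Gata3, -13.7 at Gata5, -9.98 at Hand2, -7.73 at Hand1 and -6.22 at Gata6. The diets did not overlap at Gata5 (exact permutation p = 0.1, the smallest that 3 against 3 can give), a pattern of 3.32% of all genes tested. Within 129 it was lower at 4 of the 7, beside 66.7% of all genes, with Gata2 at -16.8, Gata5 at -5.09, Gata3 at -5.04 and Gata4 at -2.15 points. No gene of the 7 had diets that did not overlap in 129, beside 3.99% of all genes. Gata6 was at 0.24 points there and Hand1 and Hand2 at 0, since both were fully covered in every library of 129. The diet difference in B6 minus that in 129 was -15.8 points at Gata4 and between -9.98 and -3.96 points at the other 6, so below 0 at 7 of 7, beside 68.8% of all genes tested. Exact permutation p was 0.32 at Gata4 and 0.44 to 1 at the others, so no difference between the backgrounds in the response to diet was shown. In this comparison 0 of 3460 genes passed adjustment and 3 (0.0867%) had an unadjusted p below 0.05 in the exact permutation test. In limma 0 passed.

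The directions at Hand1 and Hand2 rested on 1 library. Without B6 without vitamin C replicate 1 the difference over both backgrounds was 1.14 points at Hand1 and 10.99 at Hand2, and without both libraries of short peaks it was 4.95 at Hand2. At the 5 Gata genes the sign was the same whichever library was left out. There the range was -24.7 to -11.9 points at Gata2, -14.2 to -4.0 at Gata3, -15.2 to -7.02 at Gata4, -12.3 to -5.78 at Gata5 and -5.07 to -0.09 at Gata6.

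The next comparison was of B6 against 129 headfolds. Coverage was lower in B6 at 7 of 7 genes, beside 90.8% of all genes tested, and no gene passed the adjusted test. Gata6 averaged 12.2 ± 6.70% in B6 and 28.2 ± 6.68% in 129 (SD, n = 6 each), or -16.0 points. The backgrounds did not overlap at Gata6, as at 0.549% of all genes tested. The nearest libraries were at 18.9% (B6 with vitamin C replicate 4) and 19.8% (129 with vitamin C replicate 2). At Gata6 p was 0.005 in the exact permutation test within diet, the smallest that 400 relabellings can give, with an adjusted p of 0.24. Gata5 averaged 35.2 ± 11.4% in B6 and 58.1 ± 10.1% in 129, or -22.9 points (exact permutation p = 0.005, adjusted p = 0.24). Gata3 averaged 25.4 ± 18.2% in B6 and 52.5 ± 7.51% in 129, or -27.1 points (exact permutation p = 0.015, adjusted p = 0.24). Gata4 averaged 30.5 ± 15.4% in B6 and 46.7 ± 4.22% in 129, or -16.2 points (exact permutation p = 0.02, adjusted p = 0.24). Hand2 was at 73.03 ± 37.8% in B6 and 100% in every library of 129, or -27.0 points (exact permutation p = 0.05, adjusted p = 0.27). Gata2 (-12.7 points) and Hand1 (-6.65) had exact permutation p of 0.15 and 0.2. Hand1 was at 100% in every library of 129, which bounds its difference. With 5 kb in place of 1 kb at each end, Hand1 was at -23.7 points (exact permutation p = 0.005, adjusted p = 0.20). Gata2 was then at -13.0 points (exact permutation p = 0.12).

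The background differences at these genes were of one sign with either diet. Without vitamin C, B6 lay wholly below 129 at Gata3, Gata5 and Gata6, 3 of the 7 genes, beside 6.56% of all genes tested. With vitamin C it did so at Gata2, Gata5, Gata6 and Hand2, 4 of 7, beside 13.1%. The exact permutation p was 0.1 at each of these, the smallest possible. Unadjusted p was below 0.05 at 4 of the 7 genes, beside 16.9% of all genes tested, and 0 of 3460 passed adjustment in the exact permutation test, where limma called 2, neither of them among the 8. The median peak width of a list was 1.32 to 4.89 kb in B6 and 4.10 to 8.45 kb in 129, with the middle of these at 4.22 kb in B6 and 6.46 kb in 129, and the part of this breadth in the differences was not tested. With only the 748 strongest peaks of every list, the differences were -13.8 points at Gata6, -28.9 at Gata5, -30.5 at Gata3, -19.3 at Gata4 and -35.9 at Hand2, beside a median of -12.7 over the genes then tested. Joining peaks less than 5 kb apart gave -17.0 at Gata6, -22.9 at Gata5, -23.8 at Gata3, -10.3 at Gata4 and -16.0 at Hand2. The median over all genes tested was then -4.84. Library numbers run with the background, so that library batch and background cannot be told apart. Omission of any single library left all 7 differences below 0, but 3 of them moved in size by over 1.5 times. Without B6 without vitamin C replicate 1 the difference was -10.99 points at Hand2, -1.65 at Hand1 and -7.41 at Gata2, and at Gata2 it was -8.46 without 129 without vitamin C replicate 1 and -19.7 without replicate 2 of that group. Without both libraries of short peaks it was -4.95 at Hand2, -0.25 at Hand1 and -6.84 at Gata2.

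**Figure D4:**
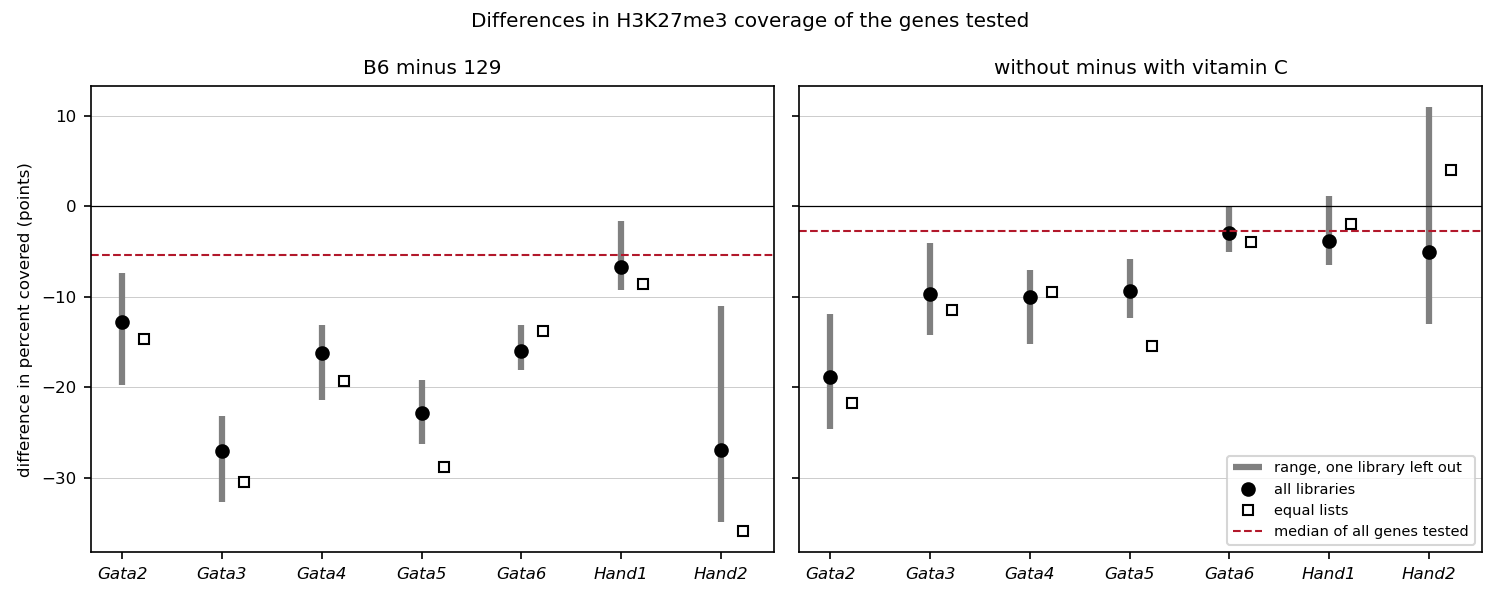
Differences in percent covered at the 7 genes tested, B6 minus 129 (left) and without minus with vitamin C (right), in percentage points. Circles use all libraries, grey bars span the values with 1 library left out, squares use the 748 strongest peaks of each list and the dashed line is the median of all genes tested. All background differences lie below 0, whereas the bars of Hand1 and Hand2 cross 0 for diet.

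Other genes of the same lineages differed widely in the mark. Of 18 cardiac transcription factor genes, 12 had a peak in at least 10 lists, beside 5.93% of all genes, led by Tbx2 (92.3 ± 15.4% covered, SD, n = 12), Tbx1 (91.1 ± 16.1%) and Irx4 (89.9 ± 19.4%). Of 18 genes of heart muscle structure and hormones, 15 had no peak in any list, and the other 3 are read against the 20.2% of all genes with a peak in at least 1. Tnni3 and Myl7 had one in 5 and 2 lists, and the calcium channel gene Ryr2 reached 10 lists with 0.61% of its span covered. Of 17 blood and endothelium genes 8 reached 10 lists, with Sox18, Etv2 and Sox17 at 86.3, 66.2 and 64.3%. Among Gata relatives and cofactors 3 of 12 did so: Lyl1 (84.8%) and Tal1 (63.9%), both partners of Gata factors in blood, and Zfpm1 (12.1%), which binds Gata1. Gata1, the red blood cell factor of the family, had no peak in any list, nor had 5 of the others.

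Of 12 bHLH genes related to Hand, 6 reached 10 lists, with Ptf1a at 91.3%, Bhlha9 at 86.1% and Msc at 70.5%. This count and the later ones at 10 lists are read against 5.93% of all genes. Of 11 Mef2 relatives and partners, 10 had no peak in any list, and Mef2b had one in 3 lists, all with vitamin C. This is read against the 20.2% of all genes with a peak in at least 1 list. Trophoblast genes reached 10 lists at 5 of 13, led by Cdx2 (90.6%) and Ascl2 (83.1%), and endoderm genes at 7 of 12, led by Pdx1 (83.4%) and Foxa2 (79.8%). Genes that act with Hand2, Gata2 or Gata3 in neural crest and sympathetic neurons did so at 6 of 11, among them Dlx3 (73.3%) and Dlx5 (70.1%). In each of these lists 0 genes passed the adjusted test for diet or for background. Coverage was lower without vitamin C at 15 of 16 cardiac factors tested, 10 of 12 blood and endothelium genes, 7 of 8 Hand relatives, 7 of 7 trophoblast genes, 8 of 8 endoderm genes and 6 of 8 crest partners, which is read against the 85% above. In B6 against 129 it was lower at all of these, beside 90.8% of all genes tested. For diet the median difference ranged from -21.6 points over the crest partners to -1.97 over blood and endothelium genes. Members with large diet differences included Dlx5 at -38.6, Dlx3 at -36.4, the neural plate gene Sox3 at -30.6, Foxa2 at -28.8 and Etv2 at -28.0 points, and for each the exact permutation test gave 0.80 as adjusted p.

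The protein-coding genes whose coverage was most like that of each gene over the 12 lists were found by the smallest mean absolute difference, leaving out genes within 1 Mb. For Hand1 these were Hoxb13, Hsf4 and Lrrc26 (1.15 to 1.46 points), and for Hand2 Tmem210, Catsperz and Lbx2 (2.51 to 4.22). For Gata2 they were Vax1, Gm33099 and Barhl1 (3.91 to 5.16), for Gata4 Mmp28, Lhx4 and Tbx4 (4.59 to 5.22), and for Gata6 Lrat, Gal3st1 and Zdhhc1 (3.67 to 3.91). For Gata3 they were Col8a2, Nr4a2 and Fosl1 (5.95 to 6.60) and for Gata5 B3gnt6, Fosl1 and Nodal (7.41 to 7.63). The lists share their libraries and their breadth across all genes, so this likeness is a description only. For Mef2c, at 0 in 11 lists, the measure is not informative.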

How the data were processed

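H3K27me3 CUT&Tag peak lists of 12 headfold libraries were used. Not analysed here are the IgG samples (4) and another 2 of H3K27me3 in B6. Per the submitters' processing notes, the tools were cutadapt, Bowtie2, Picard and SEACR, on mm10, with versions and call threshold not given in the sources used here. The authors deposited 1 list per library, with the total and maximum signal of each peak in whole numbers, without visible scaling, so precision set by depth is unknown.

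Percent covered was computed for the RefSeq span of each protein-coding gene (GRCm38.p6) extended by 1 kb at each end, taking peaks as BED intervals and printing 1-based coordinates. Genes with a peak in at least 2 lists (3460) were tested by exact permutation, two-sided, with Benjamini-Hochberg adjustment and a threshold of 0.05: 400 relabellings over both backgrounds or both diets (smallest p 0.005) and 20 within 1 background or diet (smallest p 0.1). Relabelling treats embryos as independent. The test was checked on simulated data. The 8 genes and all lists were chosen with earlier results of these data known. Genes named were the 8, the 3 most covered members of each list and the 2 with the largest diet difference, the 3 most like each of the 8, and those in the merged region; some genes that this rule names are not reported here. The Mir9-2 domain was chosen after its values were seen, as were the examples singled out from the lists. Limma 3.58.1 was an alternative. Python 3.11.15, NumPy 2.4.6, pandas 2.3.3 and Matplotlib 3.10.9 were used.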

Additional observations from a re-analysis of the deposited data

How the results depend on the processing

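Of 24 alternatives, 12 left out 1 library each and 12 changed the window, the peaks used, the joining of peaks, the weight of embryos, the relabelling or the test. The number of genes called was 0 for all 5 comparisons under each of these except limma, which called 1 gene for diet in B6 (Tmem171) and 2 for B6 against 129 (H2-T3 and LOC115488283), none of them among the 8. With 1 library left out the counts were 0 to 0. For diet, the number with an unadjusted p below 0.05 ranged from 1 (presence of a peak in place of percent covered) to 216 (without B6 without vitamin C replicate 4), and for B6 against 129 from 15 to 1120 (without 129 without vitamin C replicate 2). The diet difference at Hand2 turned to 3.98 points with equal lists, 4.95 without the libraries of short peaks and 10.99 without B6 without vitamin C replicate 1 (range -12.98 to 10.99 over single omissions). At Hand1 the range was -6.49 to 1.14. The causes of these turns were not tested. The diet difference at Gata2 had an unadjusted exact permutation p below 0.05 under 1 of the 12 other settings and 2 of the 12 omissions, with the lowest at 0.015, and that at Gata4 under 1 omission (0.03). Among the 7 genes the B6 minus 129 differences did not turn under any alternative, though they were 0 at 6 of the 7 when presence replaced percent covered, since those had a peak in all lists. Replicate numbers were given in accession order and the labels tie no embryos together, but within each background and sex they join libraries of adjacent number. A replicate block on these 6 pairs was added after seeing the data. The deviations of paired libraries from their group means correlated at -0.036 to 0.518 across genes, above 0.1 in 4 of 6 pairs. Whether the pairs share more than an adjacent number was not tested. With the block (64 relabellings, smallest p 0.031) 0 genes were called for diet over both backgrounds, within either background or for the difference between them. Over both backgrounds 191 of 3460 genes (5.52%) had an unadjusted p below 0.05. Gata4 was lower without vitamin C in 6 of 6 pairs (exact permutation p = 0.031, adjusted p = 0.46) and Gata2 in 5 with 1 equal (p = 0.062, adjusted p = 0.46). At Gata4 the B6 pairs of replicates 2 and 1 differed by -28.5 and -22.7 points, and the other pairs by -4.39 to -0.056. The unknown depth limits every comparison of list breadth.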
